A study of Mus musculus with 12 samples.

Results

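Collagens are the proteins of which fibrils, basement membranes and much of the rest of the extracellular matrix are built, and in the mouse they are encoded by genes whose symbols follow the form Col, a number, a, a number. All 44 protein-coding genes with such a symbol were among the 49548 genes counted in the lumbar spinal cord of 8 MFN2 and 4 WT mice, and 39 of them passed the filter on low counts. MFN2 mice were MitoCharc1 animals of line L51Ugfm/J on a mixed B6;D2 background, hemizygous for human MFN2 with the R94Q change under the rat Eno2 promoter, which acts mainly in neurons, and they kept both copies of mouse Mfn2. WT mice were labelled C57BL/6, while the methods of the study call them littermates. Every mouse was untreated and 30 days old, and each gave 1 library, numbered 41 to 43 and 72 to 76 for MFN2 and 44 to 47 for WT. Total counts ran from 19359454 to 26738930 per MFN2 library and from 19453238 to 23564568 per WT library.

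A collagen chain carries a glycine at regular steps of its sequence over its triple-helical part, and several such chains wind around each other. Fibrillar collagens such as types I and III form the fibrils of the meninges, of nerve roots and of large vessel walls. Type IV forms the sheet-like network of basement membranes, which in the cord surrounds blood vessels and lines the surface, and type VI forms beaded filaments in connective tissue. The FACIT collagens (fibril-associated collagens with interrupted triple helices) lie along fibrils, the multiplexins Col15a1 and Col18a1 lie in basement membrane zones, and transmembrane collagens such as Col23a1 and Col25a1 sit in the cell membrane, the latter mainly of neurons.

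The glycine repeat was visible in the genes themselves. In the 11 fibrillar genes 305 of the 649 coding exons (47%) of 1 chosen transcript per gene in GENCODE M21 were exactly 54 bases long, which is 6 glycine triplets. The same length was found in 25.2% of the coding exons of the 9 FACIT genes, in 4.05% of those of the 6 basement membrane genes and in 0.444% of the 197008 coding exons of all other protein-coding genes. The exons below, read from the GRCm38 genome in the direction of the gene, show this unit in genes to which the later results return. Capitals mark the GGN codon, which encodes glycine, that opens each triplet, so that each exon starts with one and has the next every 9 bases.
Col1a1, chr11:94944355-94944408, plus strand, exon 26 of 51: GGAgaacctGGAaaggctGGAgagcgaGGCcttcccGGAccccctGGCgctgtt
Col3a1, chr1:45334761-45334814, plus strand, exon 26 of 51: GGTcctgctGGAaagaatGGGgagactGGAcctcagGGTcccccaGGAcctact
Col11a1, chr3:114151375-114151428, plus strand, exon 38 of 67: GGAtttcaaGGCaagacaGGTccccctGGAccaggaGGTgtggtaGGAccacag
Col6a1, chr10:76718059-76718112, minus strand, exon 14 of 35: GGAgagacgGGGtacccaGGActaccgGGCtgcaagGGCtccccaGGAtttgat
Col4a1, chr8:11238998-11239051, minus strand, exon 17 of 52: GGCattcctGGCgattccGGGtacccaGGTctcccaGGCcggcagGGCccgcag
Col25a1, chr3:130583270-130583323, plus strand, exon 33 of 38: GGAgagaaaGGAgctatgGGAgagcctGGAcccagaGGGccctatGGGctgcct
The longest run of triplets with glycine first and no break was 338 in Col1a1, 344 in Col3a1 and 338 in Col11a1. It was 216 and 217 in the fibrillar genes Col24a1 and Col27a1. In the 6 type IV genes, whose helices are interrupted, the run reached from 39 triplets in Col4a3 to 66 in Col4a2, and it was 87 in both Col6a1 and Col6a2.

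**Figure D1:**
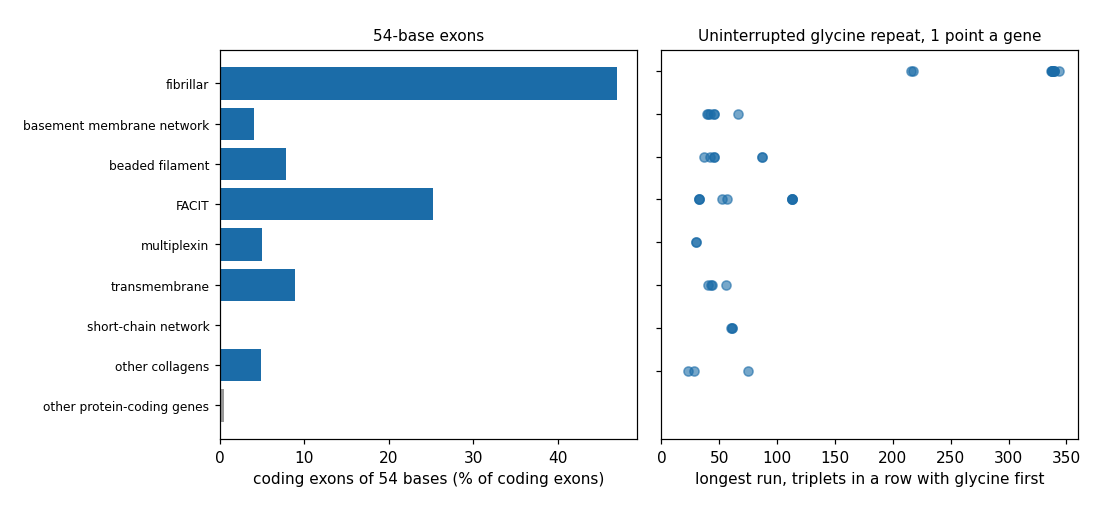
The left panel gives the share of coding exons that are 54 bases long (percent) for each structural class of collagen genes and for all other protein-coding genes, and the right panel the longest uninterrupted glycine run of each collagen gene (triplets). The fibrillar class stands highest in both, at 47% and at 216 to 344 triplets, against 0.444% of exons in other genes.

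Levels per length (RPKM, which is CPM per kilobase of annotated exons, where CPM is the count scaled to library size with TMM) were compared between genes over the 12 libraries. Col1a1, the main chain of type I fibrils, had the highest mean level at 18.9 RPKM. It was followed by Col11a2, a chain of the fibrillar type XI, at 12.5 RPKM, by the vessel chains Col4a2 at 12.3 and Col4a1 at 11.6 RPKM, and by the FACIT chain Col9a3 at 8.78 RPKM. The fibrillar class as a whole held 43.8% of the summed collagen RPKM, the basement membrane class 22.4% and the FACIT class 18.3%. Beaded filament genes held 4.45%, transmembrane genes 7.30% and multiplexins 2.33%.

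**Figure D2:**
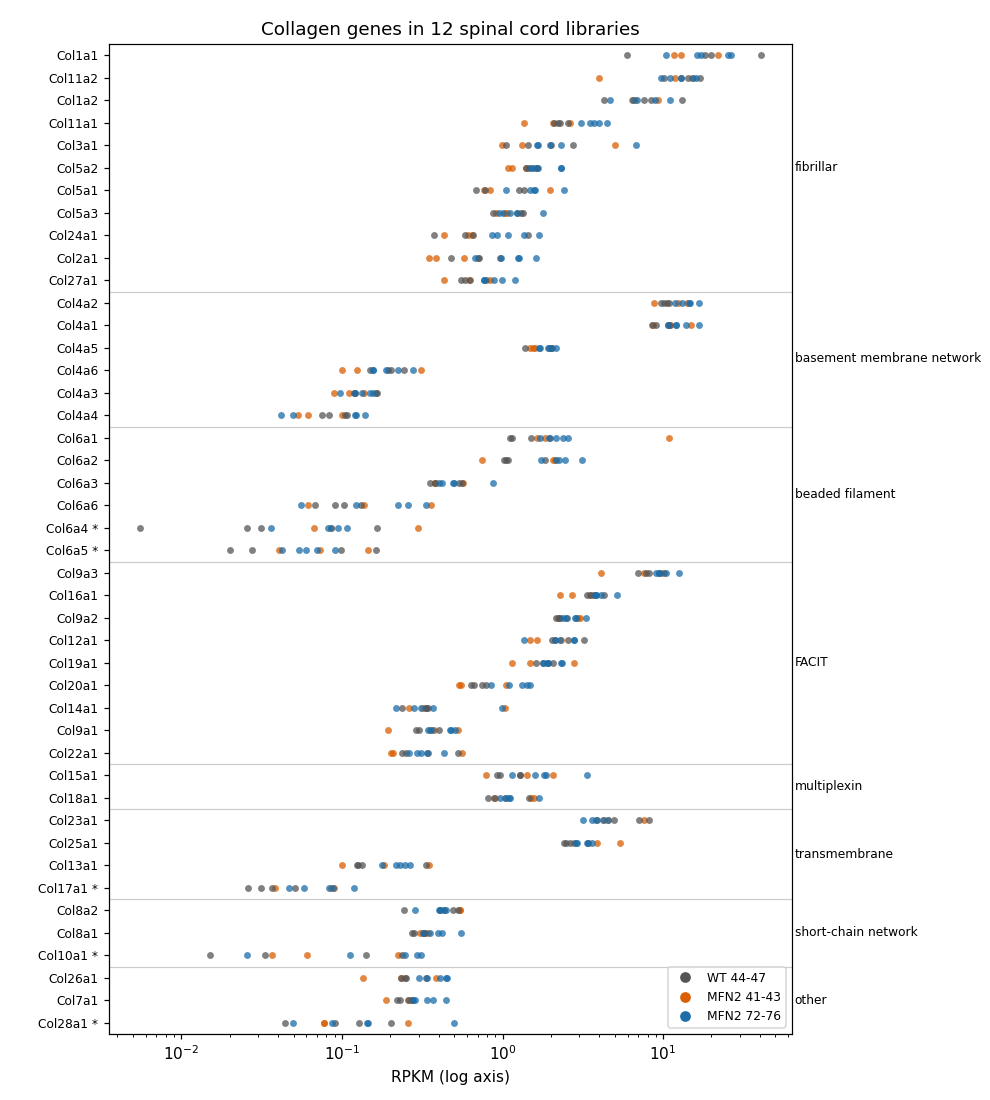
Level of each of the 44 collagen genes in RPKM (log axis), 1 point per library, with genes ordered by mean level within their structural class and an asterisk at the 5 genes that did not pass the low-count filter. Col1a1 spreads from 5.92 to 40.7 RPKM, while Col6a1 has 1 point far to the right of the others, at 10.9 RPKM in MFN2 library 43.

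The 3 highest of the fibrillar class were Col1a1, Col11a2 and Col1a2 (7.81 RPKM), and those of the FACIT class Col9a3, Col16a1 (3.67 RPKM) and Col9a2 (2.61 RPKM). Among transmembrane genes Col23a1 was at 4.98, Col25a1 at 3.26 and Col13a1 at 0.207 RPKM, and the multiplexins Col15a1 and Col18a1 were at 1.54 and 1.17 RPKM. In type VI the mean of Col6a1 was 2.57, that of Col6a2 1.80 and that of Col6a3 0.487 RPKM. The first mean rested on library 43 at 10.9 RPKM, and without libraries 43 and 73 the medians of Col6a1 and Col6a2 were 1.77 and 1.78 RPKM. Col8a2, Col8a1 and the hypertrophic cartilage chain Col10a1 made up the short-chain class at 0.430, 0.352 and 0.145 RPKM, and Col26a1, Col7a1 and Col28a1 lay between 0.150 and 0.313 RPKM. Basement membrane chains other than Col4a1 and Col4a2 were lower, with Col4a5 at 1.79 and Col4a6 at 0.194 RPKM, while Col4a3 and Col4a4, the chains of the kidney glomerulus, were at 0.130 and 0.0883 RPKM. The 5 genes below the filter, Col6a4, Col6a5, Col10a1, Col17a1 and Col28a1, had mean levels between 0.0627 and 0.150 RPKM and were tested only under the alternatives that keep low counts. Exons of 13 of the 44 genes overlap another annotated gene, among them Col9a3 with Tcfl5 and Col4a1 with Col4a2, the latter 2 only at their starts, which lie 21 bases apart. The study names a stranded library kit, but the strand setting of the counting was not given in the sources used here. How reads over the overlapping bases were counted is therefore not known.

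Before the groups were compared, libraries that stood apart were looked for. MFN2 libraries 43 and 73 held Prx, the periaxin gene of Schwann cells, at 35.5 and 50.4 CPM, against 0.235 to 1.22 CPM in the other 10 libraries. A list of 9 Schwann cell and root genes, of which Pmp22 was the most abundant, summed to 241 and 274 CPM in libraries 43 and 73 and to between 104 and 161 CPM elsewhere, with Pmp2 at 0 in every library but 43. The proteoglycan Dcn, a fibroblast gene that binds collagen fibrils, was at 17.6 and 15.7 CPM against 3.09 to 6.55 CPM, so both libraries stood highest for Prx, the root list and Dcn. Summed over whole lists, fibroblast genes were highest in library 43 but not in library 73. The 19 meningeal genes summed to 292 and 182 CPM in libraries 43 and 73, against 102 to 281 CPM elsewhere. Ptgds, the most abundant of them, was at 144 and 68.9 CPM there and at 35.4 to 210 CPM elsewhere. Apart from Ptgds, the rest of this list summed higher in libraries 43 and 73 than in any other library. The 4 general fibroblast genes summed to 80.9 and 69.7 CPM, against 57.2 to 71.5 CPM. Pdgfra made up most of that sum, at 78.5 and 66.3 CPM in libraries 43 and 73 and 52.5 to 69.0 CPM elsewhere. Apart from Pdgfra, the rest of that list was not highest in either library. Library 43 also went against its label. The 8 forebrain genes of a marker list summed to 4685 CPM there and to between 109 and 207 CPM elsewhere. The 7 spinal cord genes summed to 97.9 CPM against 447 to 556 CPM, with the glycine transporter gene Slc6a5 at 76.3 CPM. Below, results that rest on these libraries are given with and without them.

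**Figure D3:**
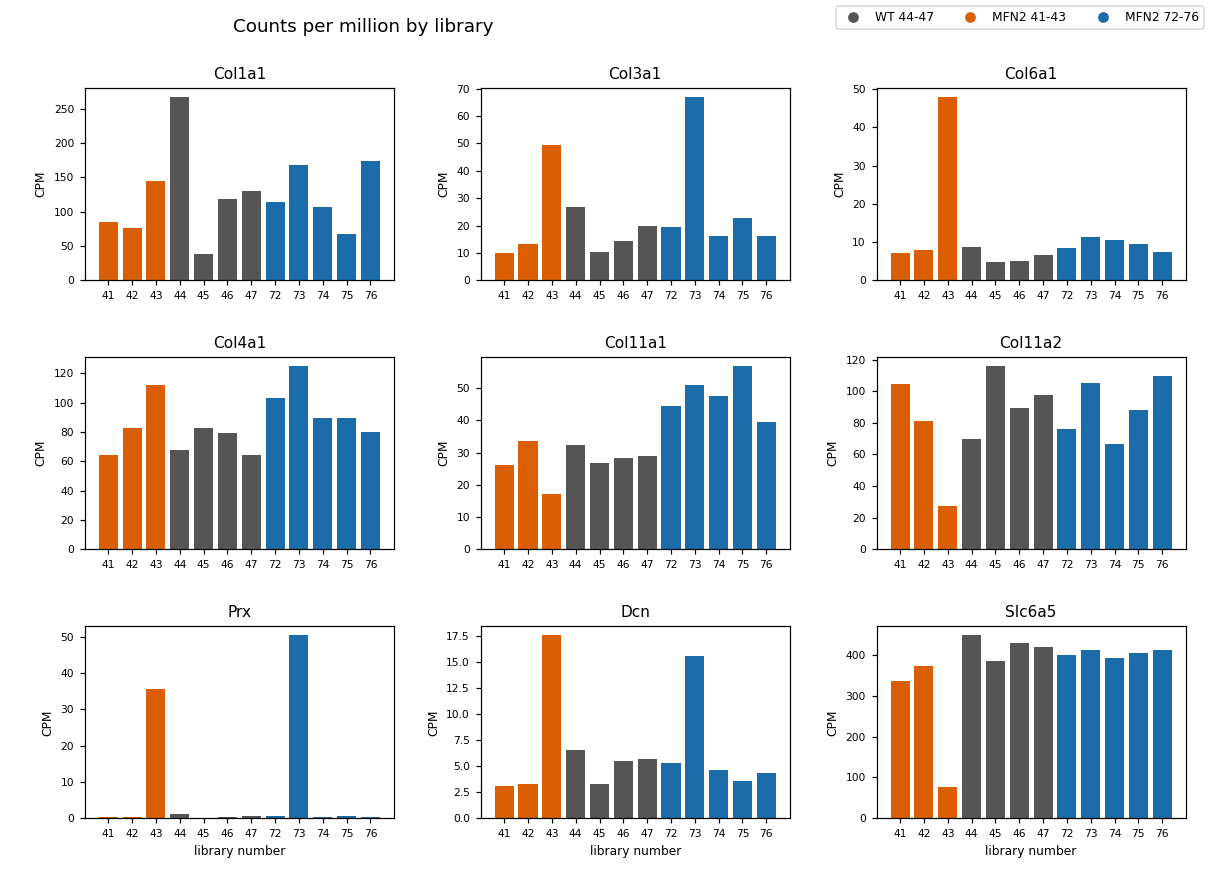
CPM of 6 collagen genes, of Prx and Dcn and of the spinal cord gene Slc6a5 in each library, 1 bar per library, with axes starting at 0. Libraries 43 and 73 are the highest for Prx, Dcn, Col3a1 and Col4a1, Slc6a5 is lowest in 43, and Col1a1 is highest in WT library 44.

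Across the 39 tested collagen genes, library 73 was the highest of the 12 for 17 genes (43.6%), where it was the highest for 9.30% of all 15942 tested genes. Libraries 43 and 73 were together the 2 highest for 8 of the 39 (20.5%), against 3.36% of all tested genes. These 8 were Col3a1, Col5a1, Col6a1, Col6a3, Col14a1, Col15a1, Col4a1 and Col4a6, while Col1a1, Col1a2 and Col4a2 were not among them. Col3a1, the type III fibril chain, was at 5.03 RPKM in library 43 and 6.82 RPKM in library 73, and between 0.995 and 2.73 RPKM in the other 10. Col14a1, a FACIT chain of fibrous tissue, was at 1.03 and 0.987 RPKM in these libraries and between 0.218 and 0.370 RPKM elsewhere. Library 73 also had the highest sums of skeletal muscle genes, at 306 CPM against 2.87 to 278 CPM in the other libraries, and of blood genes, at 333 CPM against 68.1 to 202 CPM. The part of nerve root, meninges, muscle or blood in these values was not tested, and in bulk tissue more cells of a type and more RNA per cell cannot be told apart. Library 43 was the lowest of the 12 for 8 collagen genes (20.5%), where it was the lowest for 28.7% of all tested genes. Among these 8 were Col11a2 at 3.97 RPKM, where the other 11 libraries lay between 9.69 and 16.8 RPKM, and Col9a3 at 4.13 RPKM against 6.96 to 12.6 RPKM.

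Col1a1 varied for the most part within genotypes. The 4 WT mice were at 40.7, 5.92, 18.1 and 19.9 RPKM in libraries 44 to 47, so that the highest and the lowest level of all 12 mice, a ratio of 6.87, both came from WT cords. MFN2 mice ranged from 10.4 to 26.5 RPKM, with a mean of 17.8 ± 6.24 RPKM (SD, n = 8), inside the WT range. Markers of the meninges did not move one way in library 44. Its Igf2, a growth factor gene expressed in leptomeninges, was at 34.8 CPM and its elastin gene Eln at 14.5 CPM, both above the other 3 WT libraries (6.31 to 10.7 and 3.96 to 5.64 CPM), while its Prx was at 1.22 CPM and its bone and cartilage list, led by Alpl, summed to 18.8 CPM within the range of the others (15.6 to 24.0 CPM). The whole list of 19 meningeal genes, led by the prostaglandin synthase Ptgds, summed to 222 CPM in library 44, the lowest of the 4 WT sums (233 to 281 CPM in the others). Ptgds alone was at 117 CPM there, against 156 to 210 CPM in the other WT libraries. Apart from Ptgds, the rest of the list, which includes Igf2, summed higher in library 44 than in the other WT libraries. The part of any of these sources in the Col1a1 level of library 44 was not tested.

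Spread between mice was wide for collagens. The SD of log2 CPM had a median of 0.27 over the 39 genes within WT mice, against 0.14 over all 15942 tested genes, and of 0.44 against 0.24 within MFN2 mice. In WT mice 20 of the 39 genes (51.3%) exceeded the upper quartile of all genes. Without libraries 43 and 73 the medians over the remaining 10 libraries were 0.31 and 0.18. Collagens were also less abundant than the typical tested gene, with a median of mean log2 CPM of 3.18 against 4.09, and the part of abundance in this spread was not tested. Within WT mice the SD was largest for Col1a1 (1.15), Col24a1 (0.79) and Col1a2 (0.66), and within MFN2 mice for Col6a6 (0.97), Col3a1 (0.94) and Col6a1 (0.89).

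Chains that assemble into 1 molecule were next compared library by library. Col1a1 and Col1a2, which build the type I heterotrimer from genes on chromosomes 11 and 6, varied together, with r = 0.95 and rho = 0.97 over 12 libraries (log2 CPM, permutation test with 100000 resamples, p = 1e-05 for both, the smallest that these resamples can give, adjusted p = 5.5e-05 and 0.00011 over 11 pairs of partner chains). The relation was r = 0.92 without libraries 44 and 45, the 2 farthest from the median of Col1a1, and r = 0.996 within libraries 41 to 47. Col4a1 and Col4a2, whose chains form the main type IV heterotrimer of vessels, were as close, with r = 0.94 and rho = 0.97 (permutation p = 1e-05 and 2e-05, adjusted p = 5.5e-05 and 0.00011). Their ratio of CPM stayed between 0.936 and 1.20 over the 12 libraries, and r was 0.93 without libraries 43 and 73, the 2 farthest from the median, and 0.94 within libraries 41 to 47. Libraries 72 to 76 were not correlated on their own.

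Other partners were less close. Col9a1 and Col9a3 had r = 0.79 (permutation p = 0.00455, adjusted p = 0.0167) but rho = 0.49 (permutation p = 0.113, adjusted p = 0.207), and r fell to 0.52 without the 2 libraries farthest from the median. For the remaining 8 pairs the adjusted p was 0.111 or higher. Among them Col4a3 and Col4a4 had r = 0.26, Col4a5 and Col4a6 r = 0.47, Col8a1 and Col8a2 r = 0.27, and Col6a1 and Col6a2 r = 0.43, the last with library 43 far from the line at 47.9 CPM of Col6a1 and 17.1 CPM of Col6a2. Without libraries 43 and 73 these values were -0.01, 0.69, 0.33 and 0.63.

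**Figure D4:**
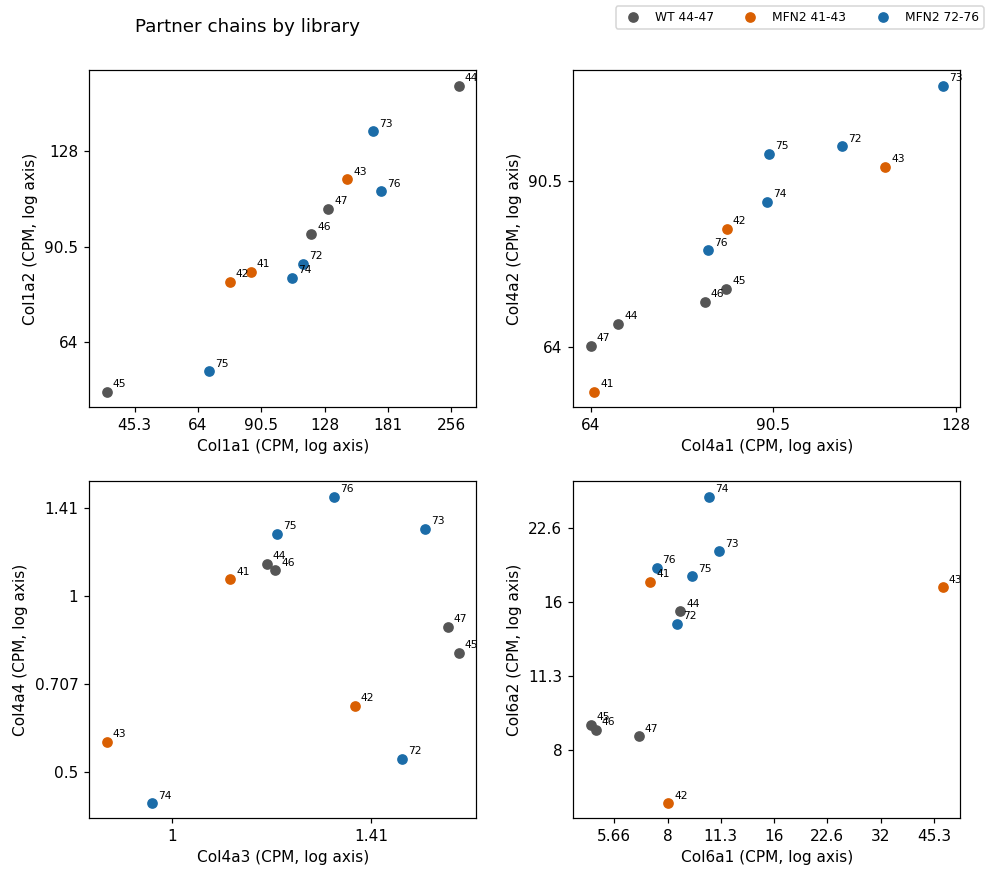
Level of 4 pairs of partner chains in each library (CPM, log axes, 1 labelled point per library). The type I and the type IV pairs lie along a line, with r = 0.95 and 0.94, Col4a3 and Col4a4 do not, and library 43 lies apart for Col6a1.

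Col4a1 and Col4a2 lie head to head on chromosome 8, and their annotated starts at 11312826 and 11312805 are 21 bases apart on opposite strands, so that reads over the first bases of each fall on both. The starts of Col4a3 and Col4a4 are 72 bases apart and those of Col4a5 and Col4a6 are 1309 bases apart. The region of both starts is shown as the RefSeq window of Col4a2 on GRCm38.p6, which also covers the start of Col4a1, from 250 bases before its start to 50 bases after it. Capitals mark matches to CCAAT and to GGGCGG, each searched on both strands.
Col4a2, chr8:11312555-11312854, plus strand: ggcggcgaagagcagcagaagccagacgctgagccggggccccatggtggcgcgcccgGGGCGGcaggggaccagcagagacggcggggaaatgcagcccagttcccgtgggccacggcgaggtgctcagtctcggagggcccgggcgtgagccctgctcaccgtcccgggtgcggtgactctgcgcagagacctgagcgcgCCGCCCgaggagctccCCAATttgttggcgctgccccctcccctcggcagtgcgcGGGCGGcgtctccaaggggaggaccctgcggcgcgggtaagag
The window holds 1 match to CCAAT and 3 to GGGCGG, none to TATAAA, and 73.7% G or C. Among the 38 windows found for 35 collagen genes, 23 (60.5%) held GGGCGG, 13 (34.2%) CCAAT and 5 (13.2%) TATAAA. Among all 32851 windows of the same length the shares were 35.7%, 37.4% and 13.6%. These matches are letters found in the windows and were not tested as binding sites. Col1a1 and Col4a3 had no window in the table used here.

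The relation of the other 38 tested collagens and 50 marker genes to Col1a1 and to Col4a1 was tested over the 12 libraries, with adjustment over the 88 genes of each family. To Col1a1, 1 gene passed an adjusted p of 0.05, its partner Col1a2. Markers of fibroblasts that came next had r = 0.68 for Igf2, 0.66 for Lum and 0.59 for Dcn, each with an adjusted p of 0.400 by permutation, and Col3a1 had r = 0.58 and rho = 0.59 with the same adjusted p. To Col4a1, 2 genes passed, Col4a2 and the multiplexin Col15a1 (r = 0.83, rho = 0.85, adjusted p = 0.0334 and 0.0383 by permutation). For Col15a1 r was 0.64 without libraries 43 and 73 (adjusted p = 0.333 by permutation) and 0.64 within libraries 41 to 47 (adjusted p = 0.382 by exact permutation). It did not pass in either set, each of which holds fewer libraries. The endothelial junction gene Esam followed at r = 0.72 (adjusted p = 0.0597) and the pericyte gene Rgs5 at r = 0.71 (adjusted p = 0.0901, both by permutation). The astrocyte genes Aqp4 and Gfap ran the other way at r = -0.75 and -0.74, with adjusted p of 0.0597 and 0.0732 by permutation on r and of 0.0387 for both on rho (rho = -0.83 and -0.82). Without libraries 43 and 73 they were at r = -0.81 and -0.75 (adjusted p = 0.148 and 0.169 by permutation), and within libraries 41 to 47 at r = -0.87 and -0.81 (adjusted p = 0.175 and 0.248 by exact permutation), so that neither passed there. Col1a1 and Col4a1 were at r = 0.031 with each other (adjusted p = 0.980 by permutation).

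The first comparison of genotypes set all 8 MFN2 against all 4 WT libraries. None of the 39 collagen genes was called (adjusted p of 0.05 or below, Benjamini-Hochberg) by the quasi-likelihood test of edgeR, which called 0 (0%) of the 15942 genes, while DESeq2 called 200 genes (1.26%) and 0 collagens. At an unadjusted p under 0.05 there were 5 collagens (12.8%), where 15.0% of all genes reached it. With 1 library left out the number was 2 (without library 46 or 47) to 9 (without library 43). Of all genes 1439 of 15898 reached that level without library 46, 1608 of 15879 without library 47 and 3351 of 15835 without library 43. Without library 76 the number of collagens was 8, where 2245 of 15871 genes reached it. All 5 had a log2 fold change above 0, where 7.40% of all genes reached that level on the higher side. They were Col25a1 (log2 fold change 0.48 ± 0.14 SE), Col4a2 (0.36 ± 0.13), Col6a2 (0.73 ± 0.29), Col9a2 (0.26 ± 0.11) and Col4a1 (0.34 ± 0.15), with adjusted p from 0.262 to 0.315 in the edgeR test.

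The log2 fold change was above 0 for 27 of the 39 collagens, with a median of 0.28 against 0.0038 over all tested genes. With the run of library numbers (41 to 47 or 72 to 76) as a covariate the median was -0.03, and without libraries 43 and 73 it was 0.13. The largest differences, for Col6a1 (1.12 ± 0.54) and Col6a6 (0.98 ± 0.49), had adjusted p of 0.346 and 0.357 in the edgeR test, and that of Col6a1 was 0.49 without library 43. The lowest were those of Col23a1 (-0.43 ± 0.23), Col1a1 (-0.25 ± 0.40) and Col12a1 (-0.24 ± 0.20), with adjusted p of 0.380, 0.775 and 0.551, and without WT library 44 they were -0.24, 0.28 and -0.10. Summed over the 44 genes, the collagen level of MFN2 libraries was 891 ± 142 CPM (SD, n = 8) and that of WT libraries 835 ± 151 CPM (SD, n = 4), a difference smaller than the spread within either group. The WT mean and spread depend on library 44, which was at 1052 CPM, while libraries 45 to 47 were at 704, 771 and 814 CPM.

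Col25a1, the neuronal transmembrane collagen, was the 1 collagen of 39 (2.56%) whose level was higher in every MFN2 mouse than in any WT mouse, where 0.979% of all genes were, and no collagen was lower in every MFN2 mouse, where 1.07% of all genes were. Its CPM was 32.3, 36.1, 33.9 and 31.1 in WT libraries 44 to 47, it was 44.3, 50.1 and 69.5 in MFN2 libraries 41 to 43, and 46.6, 37.5, 43.4, 44.1 and 37.1 in MFN2 libraries 72 to 76. The WT mice lay close together, and the highest MFN2 level was that of library 43. The log2 fold change was 0.73 ± 0.16 in libraries 41 to 43 against WT (adjusted p = 0.622) and 0.32 ± 0.08 in libraries 72 to 76 against WT (adjusted p = 0.0114, edgeR's quasi-likelihood test for both), comparisons that share their WT libraries.

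Within the first run of numbers, MFN2 libraries 41 to 43 were compared with WT libraries 44 to 47. None of the 38 collagens tested was called in the edgeR test or by DESeq2, where 1 of 15200 genes (0.00658%) was called in the former and 0.0331% in the latter. In the edgeR test 4 collagens (10.5%) had an unadjusted p under 0.05, against 7.12% of all genes. With 1 library left out this number ran from 1 (without library 47, where 379 of 14994 genes reached it) to 7 (without library 42, where 1908 of 15088 did). The 4 were Col6a1 (1.76 ± 0.68), Col25a1, Col2a1 (-0.69 ± 0.28) and Col5a2 (-0.32 ± 0.13), each with an adjusted p of 0.622. The value of Col6a1 rested on library 43, without which the log2 fold change was 0.28. Next highest were Col6a6 (0.94 ± 0.56) and Col14a1 (0.80 ± 0.49), the latter at -0.09 without library 43, and next lowest Col12a1 (-0.44 ± 0.21) and Col24a1 (-0.43 ± 0.44), at -0.29 and 0.075 without WT library 44. The median over the collagens was -0.02, with 16 of 38 above 0, where 7554 of 15200 genes were, and it turned to 0.12 without library 42, to 0.10 without WT library 44 (23 of 37 above 0 in each) and to 0.02 without WT library 47.

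MFN2 libraries 72 to 76 differed from the WT libraries at many collagens, as at many genes. In the edgeR test 9 of the 39 collagens (23.1%) were called, where 23.8% of all 15743 tested genes were, so the collagens were called at the rate of other genes. With 1 library left out 5 (without library 46 or 75) to 13 (without library 76) were called. Of all genes 2503 of 15676, 2713 of 15636 and 3953 of 15643 were called without libraries 46, 75 and 76. Of the 9, 8 were higher (20.5% of the 39, against 11.1% of all genes) and 1 was lower (2.56%, against 12.7%). The median log2 fold change was 0.32, with 31 of 39 above 0, where 7844 of 15743 genes were, and without library 73 it was 0.22, with 26 above 0. Scaled by library size only, the genes called were 2822 higher and 1345 lower, where TMM gave 1746 and 2000, and 11 collagens were called, all higher, where 26.5% of all genes were called in either direction. All WT libraries bear numbers of the first run and all of these MFN2 libraries bear numbers of the second, so that genotype and run cannot be told apart here.

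Both main chains of vascular basement membrane were among the genes called. Col4a2 was at 67.1, 72.2, 70.3 and 64.1 CPM in WT libraries 44 to 47 and at 97.4, 111, 86.7, 95.8 and 78.3 CPM in MFN2 libraries 72 to 76, with no overlap (log2 fold change 0.45 ± 0.09, adjusted p = 0.00368 in the edgeR test). Col4a1 was at 67.4, 82.8, 79.5 and 64.0 CPM in WT and at 103, 125, 89.5, 89.7 and 79.9 CPM in these MFN2 libraries (0.41 ± 0.13, adjusted p = 0.0451 in the edgeR test), where library 76 lay below WT library 45. The call of Col4a1 was made under 8 of 16 settings of filter, scaling, test and left-out library, with a log2 fold change between 0.31 and 0.47 when 1 library was left out, and that of Col4a2 under all 16. MFN2 libraries 41 to 43 were at 58.2, 81.9 and 93.3 CPM for Col4a2, on both sides of the WT range. The other type IV chains, Col4a3 to Col4a6, had log2 fold changes between -0.11 and 0.03 and adjusted p from 0.757 upwards. Of 12 endothelial markers tested 0 were called higher and 1 lower (11.1% and 12.7% of all genes), the tight junction gene Cldn5 (-0.82 ± 0.17, adjusted p = 0.00685 in the edgeR test). Their sum, led by Flt1, was 256 to 292 CPM in WT and 250 to 312 CPM in these MFN2 libraries, and the log2 fold change of Pecam1 was -0.03 ± 0.12. Of the 12 pericyte and vascular muscle genes, led by Rgs5, 0 were called higher and 2 lower, against the same shares of all genes, the contractile genes Acta2 (-1.07 ± 0.24) and Myh11 (-0.77 ± 0.21), with adjusted p of 0.00778 and 0.0231 in the edgeR test.

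Col11a1, a type XI chain that sets fibril width in cartilage and is also made by cells of the nervous system, was at 32.5, 26.7, 28.2 and 29.1 CPM in WT libraries 44 to 47. In MFN2 libraries 72 to 76 it was at 44.4, 50.9, 47.6, 56.8 and 39.5 CPM, and in libraries 41 to 43 at 26.2, 33.5 and 17.3 CPM. The second run lay above every library of the first run, of either genotype. Against WT the log2 fold change was 0.71 ± 0.10 (adjusted p = 0.00068 in the edgeR test), and against MFN2 libraries 41 to 43 it was 0.88 ± 0.20 (adjusted p = 0.0604, and called without library 43 at 0.67, adjusted p = 0.0167, in the same test). For its partner Col11a2 the log2 fold change against WT was -0.07 ± 0.18 (adjusted p = 0.831 in the edgeR test).

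Of the type VI chains 2 were called higher. Col6a2 was at 15.3, 9.0, 8.77 and 8.50 CPM in WT and at 14.4, 20.3, 26.1, 18.0 and 18.8 CPM in MFN2 libraries 72 to 76 (0.90 ± 0.21, adjusted p = 0.0146 in the edgeR test). Col6a1 was at 8.69, 4.85, 5.01 and 6.63 CPM in WT and at 8.52, 11.2, 10.5, 9.37 and 7.44 CPM in these MFN2 libraries (0.58 ± 0.18, adjusted p = 0.0360). Both overlapped through WT library 44, the highest WT library for either gene. Col6a1 was called under 10 of 16 settings of filter, scaling, test and left-out library. The call was lost without any 1 of libraries 73, 74, 75, 45, 46 and 47, while the log2 fold change stayed between 0.47 and 0.78 with 1 library left out. For the remaining partner, Col6a3, the log2 fold change was 0.22 ± 0.24 (adjusted p = 0.535, and -0.01 without library 73), and for the related Col6a6 it was 1.01 ± 0.43 (adjusted p = 0.109, edgeR test for each).

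The remaining calls were in other chains. Col20a1, a FACIT chain, was at 3.84, 3.44, 4.03 and 3.29 CPM in WT and at 7.60, 7.32, 6.76, 5.65 and 4.38 CPM in MFN2 libraries 72 to 76 (0.79 ± 0.17, adjusted p = 0.00565 in the edgeR test), without overlap, and its exons overlap an annotated sense transcript. The fibrillar Col27a1 was at 8.29 ± 1.38 CPM (SD, n = 4) in WT and 12 ± 2.36 CPM (SD, n = 5) in these MFN2 libraries (0.53 ± 0.15, adjusted p = 0.0240 in the edgeR test), called under 13 of the 16 settings. Col23a1, a transmembrane collagen, was the 1 collagen called lower, at 34.4 ± 11.1 CPM (SD, n = 4) in WT and 22.2 ± 3.07 CPM (SD, n = 5) in MFN2 (-0.64 ± 0.20, adjusted p = 0.0490 in the edgeR test), a call made under 4 of the 16. Calls of Col4a2, Col6a2, Col11a1, Col20a1 and Col25a1 were made under all 16. In this comparison 5 of the 39 collagens (12.8%) did not overlap and were higher, where 9.43% of all 15942 genes of the 12-library fit were, and none did not overlap and was lower, where 10.2% of all genes were. Just outside the threshold lay Col26a1 (0.55 ± 0.19, adjusted p = 0.0502), and the log2 fold change of Col15a1 was 0.80 ± 0.28 (adjusted p = 0.0660, edgeR test for both). Col26a1 was called under 7 of the 16 settings and Col15a1 under 3, with DESeq2 and without library 73 or 76, and without library 73 the log2 fold change of Col15a1 was 0.53.

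Col1a1, Col1a2 and Col3a1, the main fibril chains of meninges, did not pass the test. Against WT, libraries 72 to 76 gave a log2 fold change of -0.15 ± 0.53 for Col1a1, of -0.14 ± 0.36 for Col1a2 and of 0.66 ± 0.54 for Col3a1, with adjusted p of 0.877, 0.818 and 0.414 in the edgeR test. WT library 44 was the highest WT library for each of them, and MFN2 library 73 was the highest of its run for Col1a2 and Col3a1. The value of Col3a1 rested on library 73, without which it was 0.08 (adjusted p = 0.872 in the edgeR test). The direction for type I turned without WT library 44, to 0.39 for Col1a1 and 0.16 for Col1a2, and the values were 0.02 and 0.0004 without MFN2 library 75. For the marker lists that follow, 23.8% of all genes were called, 11.1% higher and 12.7% lower. Of the 11 meningeal genes tested 0 were called higher and 2 lower, Ptgds (-1.83 ± 0.23, adjusted p = 0.00148) and the transporter Slc13a3 (-0.35 ± 0.12, adjusted p = 0.0461, both in the edgeR test), with a median log2 fold change of 0.0017 over the 11. The meningeal list summed to 222 to 281 CPM in WT and to 102 to 182 CPM in these MFN2 libraries. With Ptgds set aside, the sums of the rest of the list overlapped between these groups. Ptgds, which is also made by oligodendrocytes, was at 117, 201, 210 and 156 CPM in WT and at 42.8, 68.9, 46.1, 35.4 and 47.7 CPM in these libraries. In MFN2 libraries 41 to 43 it was at 186, 160 and 144 CPM. The edgeR test also called it lower in libraries 72 to 76 against 41 to 43, where 2.19% of all genes were called. Dcn, Lum and Igf2 had log2 fold changes of 0.34, 0.25 and -0.37 and adjusted p from 0.641 to 0.690. Of 5 Schwann cell genes tested 1 was called higher, Scn7a (0.75 ± 0.24, adjusted p = 0.0388), and the list of 9 summed to 111 to 161 CPM in WT and 104 to 274 CPM in these MFN2 libraries, where 274 was library 73. No bone and cartilage gene of 5 tested was called, and of 3 astrocyte genes 1 was called lower, Gfap (-1.08 ± 0.26, adjusted p = 0.0213).

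**Figure D5:**
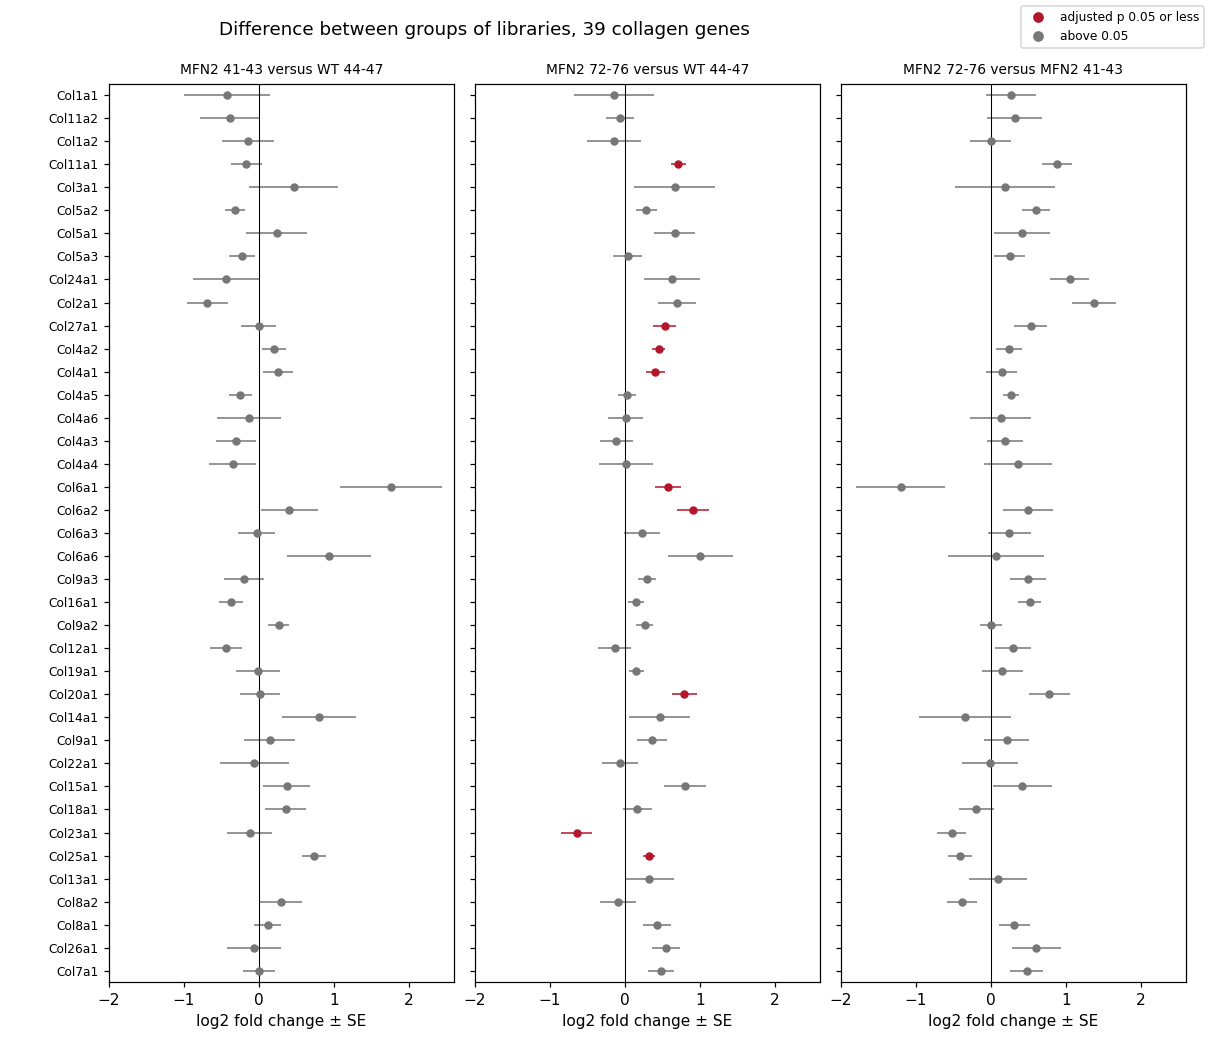
Log2 fold change of the tested collagen genes with its standard error in 3 comparisons of libraries, ordered as in the plot of levels by class, with genes at an adjusted p of 0.05 or less in red. There are 9 red genes in MFN2 72-76 against WT, 8 to the right of 0 and 1 to the left, and none in the other 2 panels.

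Genes of the collagen pathway were taken from lists of folding and processing enzymes, receptors, degrading enzymes and matrix partners. In the 12-library comparison and in libraries 41 to 43 against WT, 0 genes of these 5 lists were called. In libraries 72 to 76 against WT 6 of 31 folding and processing genes were called, 2 higher and 4 lower, where 23.8% of all genes were called, 11.1% higher and 12.7% lower. Higher were Mia3 (0.16 ± 0.05), which loads procollagen for export and is the most abundant of its list, and the procollagen protease Adamts3 (0.23 ± 0.07). Lower were the procollagen chaperones Serpinh1 (-0.31 ± 0.10) and Fkbp10 (-0.52 ± 0.16), the cross-linking enzyme Loxl1 (-0.59 ± 0.19) and the protease enhancer Pcolce2 (-1.06 ± 0.20). The edgeR adjusted p of these 6 ranged from 0.00329 to 0.0436. The median of the list was -0.08, against 0.32 for the collagens themselves.

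Degrading enzymes and their inhibitors gave 1 call higher and 4 lower of 11 tested. For this list and for those of receptors and matrix partners that follow, the background was the same, 11.1% of all genes called higher and 12.7% lower. Mmp14, the membrane-bound collagenase, was at 35.8, 35.5, 36.9 and 34.2 CPM in WT and at 20.5, 18.1, 20.3, 17.3 and 20.1 CPM in MFN2 libraries 72 to 76, with no overlap (-0.89 ± 0.07, adjusted p = 1.51e-05 in the edgeR test). In libraries 41 to 43 it was at 29.6, 31.6 and 21.6 CPM. Mmp16 was higher (0.38 ± 0.07), and the inhibitors Timp2, the most abundant of the list, and Timp3 and the protease Ctsk were lower (-0.21 ± 0.06, -0.25 ± 0.05 and -0.43 ± 0.12). Of 8 receptors tested 1 was called, the most abundant one, Ddr1 (-0.34 ± 0.08, adjusted p = 0.00791), a receptor kinase for collagen. Of 13 basement membrane partners 1 was called higher, the laminin chain gene Lama1 (0.35 ± 0.11, adjusted p = 0.0404), and 2 lower, Lama5 (-0.53 ± 0.11) and Lamb2 (-0.42 ± 0.07, adjusted p = 0.00566 and 0.00199, edgeR test for each), while Sparc, the most abundant, had a log2 fold change of 0.15 ± 0.09. Lamb2 was also called lower in libraries 72 to 76 against MFN2 libraries 41 to 43, where 2.19% of all genes were called. No other gene of the pathway lists was called in that comparison. Of 16 fibril-associated genes 2 were called lower against WT, Prelp (-0.67 ± 0.17) and Thbs2 (-0.34 ± 0.11), and Fn1, the most abundant, had a log2 fold change of 0.21 ± 0.11.

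The last comparison set the MFN2 libraries of both runs against each other, 72 to 76 against 41 to 43, in which genotype is the same while animals and library numbers differ, and library 43 differs in tissue content too, with its forebrain list at 4685 and its spinal cord list at 97.9 CPM. None of the 39 collagens was called in the edgeR test, where 342 of 15633 genes (2.19%) were, while DESeq2 called 5 (12.8%; Col2a1, Col5a2, Col11a1, Col16a1 and Col24a1), where it called 11.6% of all genes. Of the 39, 10 (25.6%) had an unadjusted p under 0.05, against 24.6% of all genes. This number was 7 without library 72, where 3242 of 15552 genes reached that level, and 15 without library 43, where 4895 of 15509 genes did. Of the 10, 8 were higher in libraries 72 to 76 (20.5%, against 10.4% of all genes). The largest were those of fibrillar genes, Col2a1 (1.38 ± 0.30), Col24a1 (1.05 ± 0.26) and Col11a1, and the lowest those of Col6a1 (-1.20 ± 0.59), Col23a1 (-0.52 ± 0.19) and Col25a1 (-0.41 ± 0.16). Left-out libraries moved Col23a1 to -0.20 (without library 41) and Col25a1 to -0.18 (without library 43). Without library 43, 7 collagens were called, all higher (Col19a1, Col5a2, Col5a1, Col11a1, Col24a1, Col26a1 and Col2a1), where 15.3% of all genes were called, and Col6a1 changed sign to 0.30. Without libraries 43 and 73, 7 were also called, where 1831 of 15272 genes (12%) were, and 6 of them were among those 7. In 10 of the 11 fibrillar genes the log2 fold change between the runs was above 0, with a median of 0.42, where 7450 of all 15633 genes were above 0 and their median was -0.02. This was not particular to the fibrillar class. Of all 39 collagens 30 were above 0, with a median of 0.25, and all 6 basement membrane genes were, with a median of 0.22. Among the fibrillar genes Col3a1 turned to -0.37 without library 73 and Col11a2 to -0.07 without library 43.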

How the data were processed

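Lumbar spinal cord RNA of 8 MFN2 and 4 WT mice was sequenced in paired ends by the authors, trimmed, aligned to GRCm38 with STAR (build GRCm38.p6 per the submitters' processing notes), and deposited as whole-number counts per Ensembl gene. The study names a stranded library kit, but how reads were assigned to genes, and with which strand, is not given in the sources used here. Nothing in the labels pairs the mice, and p-values measure the spread between them.

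Members were matched by Ensembl ID through GENCODE M21, which gave 49289 of the 49548 genes a symbol. A gene entered a comparison where 3 or more of its libraries exceeded 1 CPM, and TMM-scaled counts went into the quasi-likelihood test (legacy, robust) of edgeR 4.0.16 in R 4.3.3, with Benjamini-Hochberg adjustment over all genes at 0.05. Standard errors were derived from the F statistic, and log2 CPM used a prior count of 2. RPKM divided CPM by annotated exon length, so a long 3′ end lowers it. DESeq2 1.42.0 was an alternative. Correlations were tested by permutation in Python 3.11.15. The steps were tested on simulated data.

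Named genes were the called collagens, the 3 most abundant of each class, partner chains, the 3 highest and 3 lowest fold changes of each comparison, and from each other list its most abundant gene and those of smallest p; others were named after their values were seen. The members and lists were chosen with earlier results of these data known. A marker gene of one list is not reported here.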

Additional observations from a re-analysis of the deposited data

Results flagged for a closer look

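Each of the 39 tested collagens was examined in both genotypes for a mouse far from the rest, as the gap on the log2 CPM scale between the highest or lowest mouse and its nearest neighbour, divided by the range of the group. Of 78 groups 12 exceeded the critical value for their size, where chance gives about 3.9.

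In MFN2 mice 4 of the 12 were in library 43. Col6a1 was highest there with a gap of 0.765 of the range (47.9 CPM, next 11.2 CPM). Col11a2 was lowest there with 0.641 (27.3 CPM, next 66.6 CPM), as were Col9a1 with 0.56 (0.985 CPM, next 1.73 CPM) and Col9a3 with 0.546 (15.9 CPM, next 29.2 CPM). Col5a3 was highest in library 73 with 0.543 (12.1 CPM, next 8.41 CPM). Col6a2 was lowest in library 42 with 0.584 (6.22 CPM, next 14.4 CPM), Col8a2 lowest in library 76 with 0.536 (1.27 CPM, next 1.81 CPM), and Col23a1 highest in library 41 with 0.588 (43.4 CPM, next 25.9 CPM).

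In WT mice library 44 was highest for Col6a2 with 0.904 (15.3 CPM, next 9.0 CPM) and for Col13a1 with 0.937 (1.53 CPM, next 0.612 CPM). Col4a5 was lowest in library 46 with 0.888 (9.30 CPM, next 13.1 CPM) and Col14a1 lowest in library 45 with 0.949 (1.65 CPM, next 2.35 CPM).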

How the results depend on the processing

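No paired analysis was possible because no library number occurs in both genotypes. Collagens called numbered 0 under every alternative of the 12-library comparison and of libraries 41 to 43 against WT. Against WT, libraries 72 to 76 gave 9, with 7 under filterByExpr (of all genes 3758 of 17779 were called) and 13 with DESeq2 (4252 of 15735). When 1 library was left out they gave 5 to 13, with 5 without library 75 (2713 of 15636 genes), 5 without library 46 (2503 of 15676) and 13 without library 76 (3953 of 15643). Against libraries 41 to 43 they gave 0, but 1 with no filter (342 of 36674 genes), 1 with library size only (386 of 15633) and 5 with DESeq2 (1795 of 15452). With 1 library left out they gave 0 to 7, with 7 without library 43 (2375 of 15509 genes). Without libraries 43 and 73, a setting chosen after seeing the data, they gave 7 (1831 of 15272 genes). Over all genes the calls numbered 0 with 12 libraries, but 200 with DESeq2 and 19 without library 43. In libraries 41 to 43 against WT they numbered 1, and 5 with DESeq2. In libraries 72 to 76 against WT they numbered 3746, and 2350 to 4517 when 1 library was left out (2350 without library 45). Between the MFN2 runs they numbered 342, with 1795 by DESeq2 and 31 to 2375 when 1 library was left out. Of 38 single-gene differences 32 kept their sign under every alternative. Without WT library 44 the log2 fold change of Col1a1 was 0.28 over 12 libraries and 0.39 in libraries 72 to 76 against WT, where that of Col1a2 was 0.16, and that of Col24a1 in libraries 41 to 43 was 0.075. Left-out libraries gave Col1a1 -0.56 to 0.28 over 12 libraries and -0.46 to 0.39 in 72 to 76 against WT, Col1a2 -0.36 to 0.16, Col14a1 -0.091 to 1.13 and Col24a1 -0.66 to 0.075 in 41 to 43, and Col6a1 -1.60 to 0.30 between the MFN2 runs (0.24 without 43 and 73). Genes related to Col1a1 numbered 1, and 0 in MFN2 libraries. Genes related to Col4a1 numbered 2, with 0 in libraries 41 to 47, 7 in MFN2 libraries and 1 without libraries 43 and 73. The causes were not tested, beyond fewer libraries or other genes tested. Collagens near 1 CPM rest on few counts.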

Other observations

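Some marker lists outside the comparisons varied by library. The 8 skeletal muscle genes, led by Myh4, summed to 278 CPM in WT library 47 and 306 CPM in MFN2 library 73, and to as little as 2.87 CPM in WT library 45. The 5 blood genes, led by Hbb-bs, summed to 333 CPM in library 73 and to 68.1 to 202 CPM in the other 11. The 33 genes of collagen folding and processing summed to between 818 and 948 CPM over all 12 libraries, a narrower range than that of the collagens themselves, which summed to between 704 and 1186 CPM.

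In libraries 72 to 76 against WT, the edgeR test called all 3 microglial genes lower (P2ry12, Cx3cr1 and Csf1r), where 11.1% of all genes were called higher and 12.7% lower. It called 1 of 3 general fibroblast genes lower (Clec3b), 1 of 7 forebrain genes higher (Nrgn), 1 of 5 blood genes higher (Alas2), and 0 of 7 spinal cord and 0 of 8 skeletal muscle genes. Of 6 genes of oligodendrocytes and neurons Syt1 was called higher and Snap25 lower. All WT libraries lie in the other run of numbers, so genotype and run cannot be told apart for these genes in this comparison either. In MFN2 libraries 72 to 76 against 41 to 43, the edgeR test called Cx3cr1 alone of these genes, also lower, where 2.19% of all genes were called. All 3 microglial genes had an unadjusted p under 0.05 there, where 24.6% of all genes did.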
